A study of Mus musculus with 20 samples.

Results

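The proneural basic helix-loop-helix (bHLH) genes Neurog1, Neurog2, Neurod1, Neurod2, Neurod6 and Bhlhe22 were examined in sorted cells of the mouse Nkx2.1 lineage. The 6 genes were taken by name from 21938 protein-coding genes. Each was described by the peaks in a window of the gene body with 5 kb on each side (mm10), and by the ATAC-seq consensus regions that the authors' annotation assigned to it, 8 of 32120. The windows were 11686 to 14234 bp long. ATAC-seq and Cut&Tag for H3K4me1, H3K27ac and H3K27me3 had 2 libraries each from WT (Nkx2.1-Cre) and from Tcf4 cKO (Tcf4f/f; Nkx2.1-Cre) mice. All these mice carried the Ai3 reporter, and GFP-positive cells were sorted from the neocortex at postnatal day 7 or 8. Nkx2.1-Cre acts in ventral telencephalic progenitors, so Tcf4 was deleted in the lineage and not in other cortical cells. Tcf4 occupancy came from 2 anti-Flag Cut&Tag libraries of another line, Tcf4-tag, in which Cre in the same lineage adds HA and Flag tags to the endogenous Tcf4 protein. The replicates were numbered in the labels without naming separate animals, so the spread between them may be partly technical.

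Proneural bHLH factors drive neural progenitors out of the cell cycle and into neuronal differentiation. They bind E-box DNA as dimers with the E proteins Tcf3, Tcf4 and Tcf12, and Id proteins block them by taking up the E proteins. In the cortex the neurogenins act first in dorsal progenitors, and the NeuroD factors and Bhlhe22 follow in excitatory neurons, whereas cells of the Nkx2.1 lineage come from ventral progenitors. H3K27me3, deposited by Polycomb repressive complex 2, marks silenced developmental genes, H3K27ac marks active promoters and enhancers, and H3K4me1 marks enhancers, active or not.

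The peak lists held 15085 to 72790 peaks per library, and read depth was unknown. The H3K4me1 libraries covered 27.2 and 32.7 Mb in WT and 42.6 and 37.9 Mb in Tcf4 cKO. The ATAC-seq libraries covered 36.1 and 48.5 Mb in WT and 40.4 and 37.7 Mb in Tcf4 cKO. Deletion of Tcf4 was not checked here, because peaks do not measure transcripts. Among markers of the cell types that the sort could hold, promoters (1 kb on each side of the gene start) under an H3K27ac peak in both WT libraries numbered 1 of 10 for interneurons (Maf), 1 of 5 for oligodendrocyte precursors (Olig1), 2 of 5 for astrocytes (Fgfr3 and Sox9), 1 of 4 for endothelial cells (Kdr) and 0 of 4 for microglia. In Tcf4 cKO the oligodendrocyte precursor genes had 0 of 5 and the astrocyte genes 2 of 5 (Slc1a3 and Fgfr3), with Maf and Kdr as in WT and microglia again at 0 of 4. The promoters of the interneuron genes Dlx1, Dlx2, Dlx5, Dlx6, Lhx6, Gad2 and Sst lay under H3K27me3 in both libraries of each genotype. Of the interneuron list only Maf had promoter H3K27ac in both libraries of a genotype, so Gad2, Lhx6 and Sst had none. Over all protein-coding genes, 49.5% of promoters had H3K27ac and 14.8% had H3K27me3 in both WT libraries. In Tcf4 cKO these shares were 46.5% and 14.8%. In bulk libraries a mark carried by more of the cells and a stronger mark in the same cells cannot be told apart.

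The 6 genes are short, with a median length of 3393 bp against 17425 bp over all protein-coding genes, and each has its whole coding sequence in 1 exon. In the GENCODE M21 annotation Neurog1 lies on the minus strand at chr13:56250478-56252163 and Neurog2 on the plus strand at chr3:127633135-127635631. Neurod1 (chr2:79452521-79456751), Neurod2 (chr11:98325415-98329648) and Neurod6 (chr6:55677822-55681263) lie on the minus strand, and Bhlhe22 (chr3:18054174-18057517) on the plus strand. CpG content differed among them. The observed to expected CpG ratio within 1 kb of the gene start was 0.86 at Neurog2 and 0.78 at Bhlhe22, above 96.0% and 90.0% of genes. It was 0.68 at Neurog1, 0.52 at Neurod1, 0.47 at Neurod2 and 0.27 at Neurod6, the last above only 32.9% of genes.

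Accessible chromatin and Tcf4 peaks lay together over the coding exon at Neurog2, Neurod1, Neurod2 and Bhlhe22. They also did over the start and part of the coding exon at Neurog1, and past the gene end at Neurod6. The 5 stretches of sequence shown are for such places, for a Tcf4 summit beside accessible chromatin downstream of Neurog2, and for the region that differed most. Each is 151 bases around a peak summit or region centre, read from GRCm38 on the plus strand, with the general E-box CANNTG in capitals. The first is the sequence under the 1 Tcf4 region found in both libraries, in the coding exon of Neurod1 (chr2:79454195-79454345), and the second is a Tcf4 summit of replicate 1 in the coding exon of Bhlhe22 (chr3:18055445-18055595). The third is the element downstream of Neurod6 (chr6:55676898-55677048), and the fourth a Tcf4 summit of replicate 1 downstream of Neurog2 (chr3:127639437-127639587), where the ATAC-seq peaks began at 127639538 to 127639769, near or past the end of the stretch. The fifth is the centre of the region upstream of Neurod6 (chr6:55690399-55690549), which had the largest difference between genotypes among the consensus regions of the 6 genes.
Neurod1 coding exon: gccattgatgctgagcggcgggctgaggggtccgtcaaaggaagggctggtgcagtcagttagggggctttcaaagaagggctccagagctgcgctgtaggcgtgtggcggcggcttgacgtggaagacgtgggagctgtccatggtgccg
Bhlhe22 coding exon: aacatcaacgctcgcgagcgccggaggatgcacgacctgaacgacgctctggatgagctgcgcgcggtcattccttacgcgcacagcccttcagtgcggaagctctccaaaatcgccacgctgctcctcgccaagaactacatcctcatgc
Neurod6 downstream element: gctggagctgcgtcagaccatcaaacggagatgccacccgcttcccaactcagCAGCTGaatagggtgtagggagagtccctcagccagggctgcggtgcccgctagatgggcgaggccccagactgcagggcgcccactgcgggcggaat
Neurog2 downstream summit: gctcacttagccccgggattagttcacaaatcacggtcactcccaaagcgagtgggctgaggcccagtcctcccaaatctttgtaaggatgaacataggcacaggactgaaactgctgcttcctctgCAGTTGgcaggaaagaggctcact
Neurod6 upstream region: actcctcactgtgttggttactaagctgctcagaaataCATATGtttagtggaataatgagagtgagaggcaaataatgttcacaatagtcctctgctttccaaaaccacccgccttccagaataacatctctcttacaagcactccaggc

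H3K27me3 covered part of every window in all 4 libraries. All 6 promoters lay under an H3K27me3 peak in both WT and both Tcf4 cKO libraries. Among all protein-coding promoters 14.8% did in WT, 14.8% in Tcf4 cKO and 11.0% in all 4 libraries. The mean share of the window covered in WT ran from 37.1% at Neurog1 to 46.9% at Neurog2, above 99.2% and 99.6% of all protein-coding genes. For the 8036 genes with H3K27me3 in at least 2 libraries the median was 2.39%. The 6 genes have shorter windows than most genes, and a domain of a given size fills more of a short window. These shares were not adjusted for window length. The peaks were not high in their own lists, whose median fold enrichment ran from 2.45 to 2.52. The highest ranked, at Neurod6 in Tcf4 cKO replicate 1 (2.47), was above 47.4% of the peaks of its list. At the other genes none was above more than 25.4%. The domains did not all lie alike. At Neurog1, a single domain ran from between -720 and -503 bp to between 3110 and 4336 bp, counted from the gene start, past the gene. At Bhlhe22, a single domain of 5346 to 5732 bp lay mostly upstream and ended 1683 to 1776 bp after the start, near the end of the coding sequence at 1678 bp. Neurod1, Neurod2, Neurod6 and Neurog2 had 2 to 5 separate H3K27me3 peaks per library in the window.

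**Figure D1:**
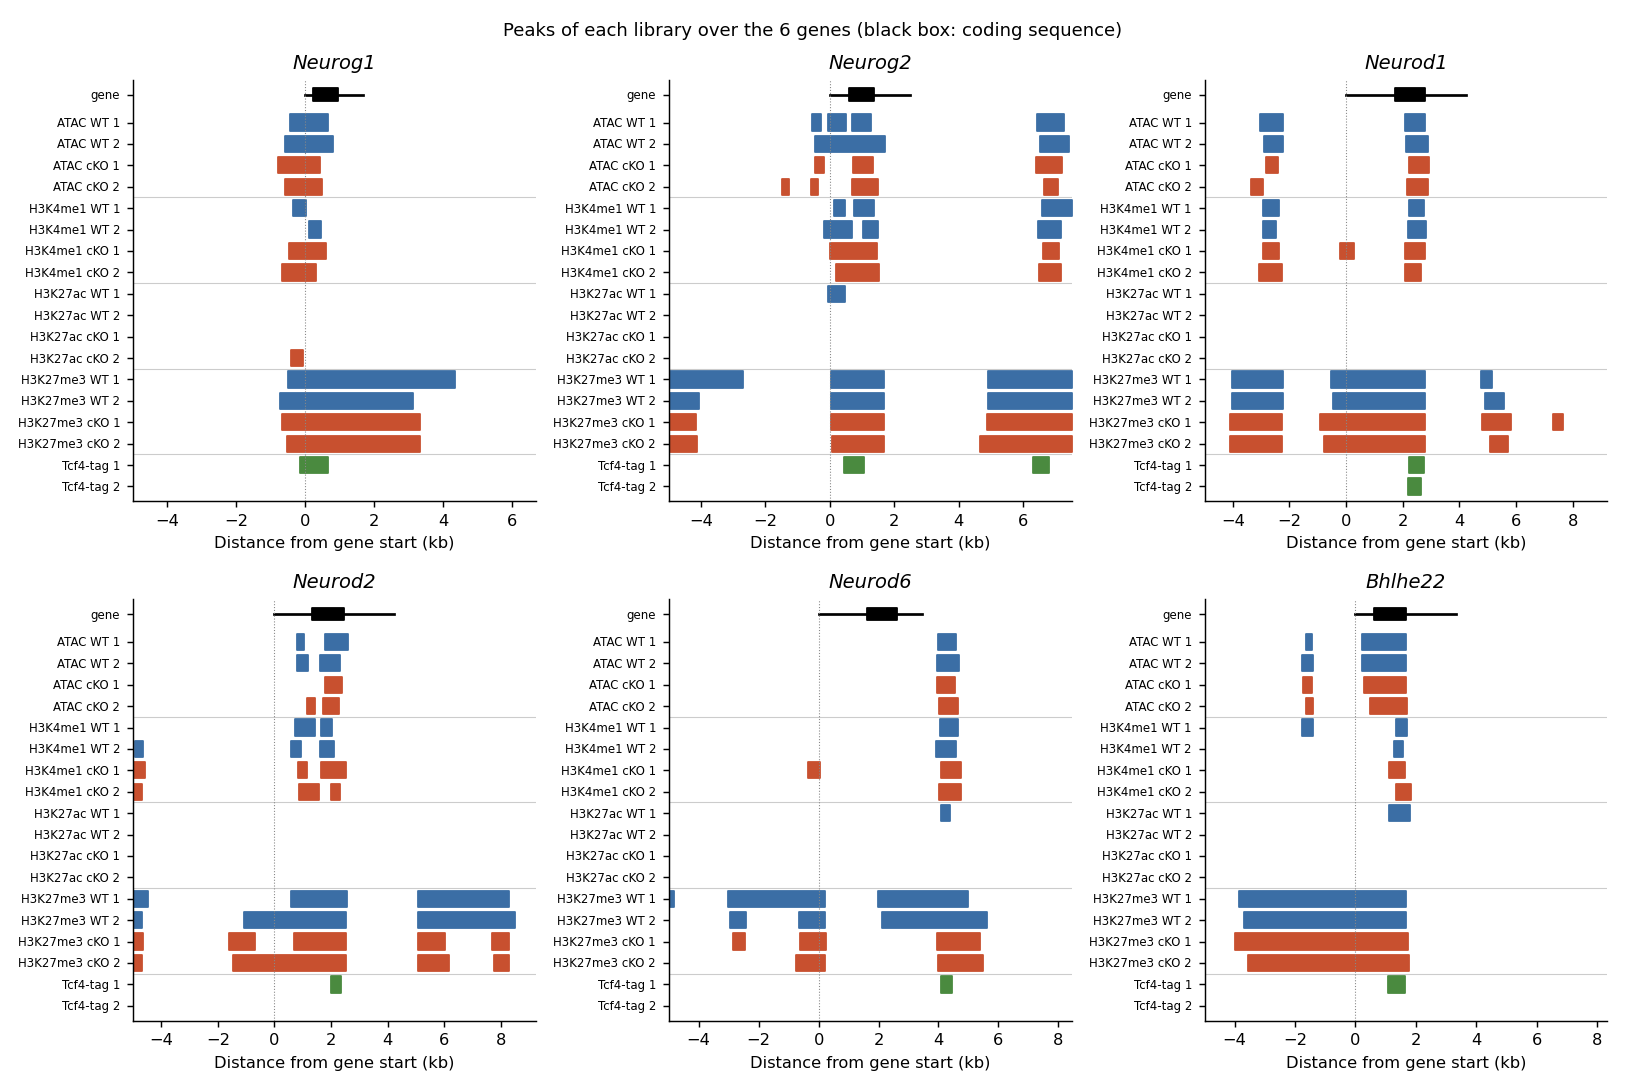
Peaks of each of the 18 libraries over the 6 gene windows, against distance from the gene start in kb, oriented along the gene, with WT in blue, Tcf4 cKO in red and Tcf4-tag in green. Black lines are the genes and black boxes their coding sequences. H3K27me3 covers part of every window in both genotypes. ATAC-seq peaks reach into the coding box in all 4 libraries at each gene but Neurod6, and the H3K27ac rows are nearly empty.

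Neurod6, which is expressed in differentiating excitatory neurons, had the largest H3K27me3 difference among the 6 genes. Peaks covered 47.4% and 36.5% of its window in the WT libraries and 20.2% and 18.3% in the Tcf4 cKO libraries. The genotypes did not overlap, with Tcf4 cKO the lower. Among all genes tested, 19.2% showed that pattern and 25% the opposite one. The difference, Tcf4 cKO minus WT, was -22.7 ± 4.40 percentage points (SE, limma), which did not pass the threshold of 0.05 (adjusted p = 0.155). The peak over the end of the gene moved most. In WT it began 1992 and 2114 bp after the gene start and took in 632 and 510 bp of the 1011 bp of coding sequence. In Tcf4 cKO it began 3935 and 3971 bp after the start and took in none of it. The peak over the gene start remained in all 4 libraries, where it ended 212 to 232 bp into the gene. In WT replicate 1 alone it reached back to -3009 bp.

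At the other 5 genes the H3K27me3 differences were smaller. Neurod1, a driver of neuronal differentiation, had 38.7% and 40.1% of its window covered in WT and 48.7% and 42.2% in Tcf4 cKO. Each Tcf4 cKO value was above each WT value, with a difference of 6.09 ± 2.79 percentage points (SE, adjusted p = 0.443), which was 2.86 without Tcf4 cKO replicate 1 and 9.32 without Tcf4 cKO replicate 2. Neurod2, a factor of maturing excitatory neurons, had 40.2% and 51.9% in WT and 32.9% and 41.9% in Tcf4 cKO, and the groups overlapped. The same overlap held for Neurog1, with 41.4% and 32.8% in WT and 34.2% and 33.0% in Tcf4 cKO, and for Neurog2, with 52.4% and 41.4% against 41.0% and 42.4%. Bhlhe22, a regulator of cortical area identity, had the most even values, 41.5% and 40.3% in WT and 43.0% and 40.1% in Tcf4 cKO. The difference at Neurod2 was -8.72 ± 5.70 points, ran from -14.5 to -2.89 without 1 library, and turned to 5.25 with 2 kb on each side of the gene in place of 5 kb. None of the 6 genes passed the test in either direction (limma), where 0% of 8036 genes were called and 1314 had an unadjusted p under 0.05. The median difference over the 6 genes was -4.35 points, and over all genes tested 0.10. These medians stand on unlike base levels, with a median WT cover of 41.4% at the 6 genes and 2.39% over the genes tested.

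**Figure D2:**
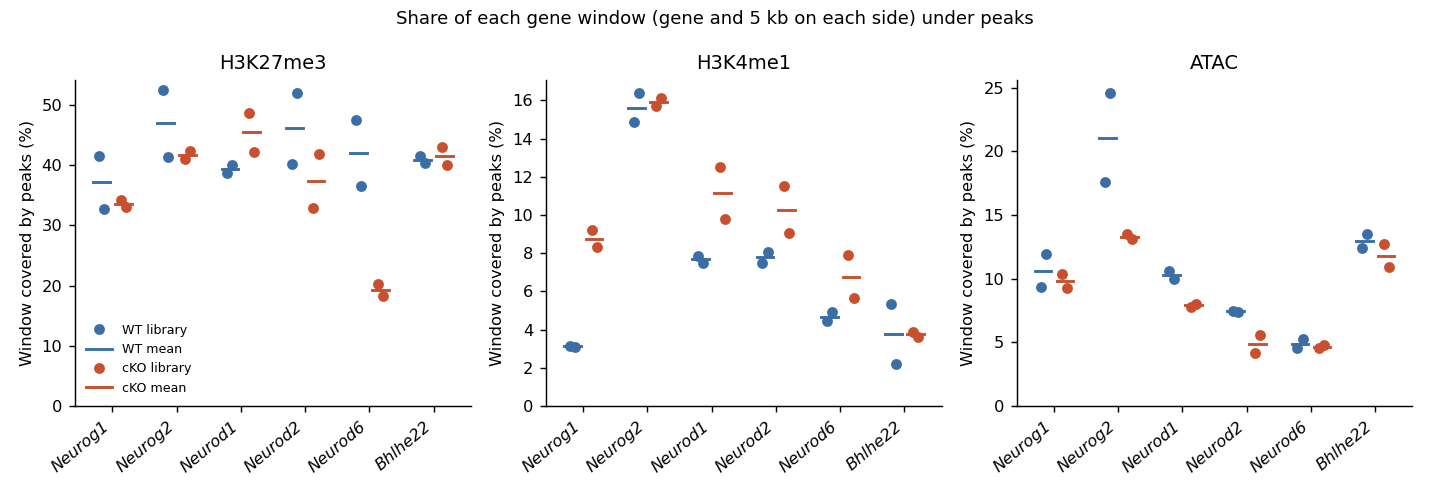
Share of each gene window under H3K27me3, H3K4me1 and ATAC-seq peaks in percent, with 1 point per library and a line at the mean of the 2 libraries of each genotype. H3K27me3 at Neurod6 is at 47.4% and 36.5% in WT and at 20.2% and 18.3% in Tcf4 cKO, while ATAC-seq at Neurog2 is at 17.6% and 24.6% in WT and 13.5% and 13.1% in Tcf4 cKO.

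The strength of the H3K27me3 peaks, taken as the log2 of the highest fold enrichment over local background in the window, differed by -0.07 to 0.09 between genotypes at the 6 genes. At Neurod6 the highest fold enrichment was 2.20 and 2.15 in WT and 2.47 and 2.16 in Tcf4 cKO. The H3K27me3 left there in Tcf4 cKO covered less of the window, and its strongest peak was not lower in either Tcf4 cKO library than in WT replicate 2. None of the 6 passed the limma test, where 0% of 4369 genes were called and 362 had an unadjusted p under 0.05.

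H3K27ac was nearly absent from these windows. No promoter of the 6 genes had an H3K27ac peak in both libraries of either genotype, where 49.5% of all protein-coding promoters did in WT and 46.5% in Tcf4 cKO. The peaks that were found came from 1 library each. WT replicate 1 had a peak from -70 to 478 bp at Neurog2, from 1121 to 1790 bp at Bhlhe22 and from 4099 to 4391 bp at Neurod6, counted from the gene start. Tcf4 cKO replicate 2 had a peak from -415 to -63 bp at Neurog1. Neurod1 and Neurod2 had none in any library. These peaks had fold enrichments of 3.45 to 5.08. No member had H3K27ac cover in 2 libraries, so none entered the test of H3K27ac extent.

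H3K4me1 was present in every window in all 4 libraries, in most cases on the same stretch as accessible chromatin. At Neurog1, which starts neuronal commitment, H3K4me1 covered 3.16% and 3.08% of the window in WT and 9.20% and 8.30% in Tcf4 cKO. Both Tcf4 cKO libraries were higher, by 5.63 ± 1.16 percentage points (SE, limma, adjusted p = 0.241), and the peaks were 369 and 360 bp wide in WT and 1075 and 970 bp in Tcf4 cKO. Neurod1 had 7.87% and 7.50% against 12.5% and 9.81%, Neurod2 7.50% and 8.07% against 11.5% and 9.05%, and Neurod6 4.43% and 4.94% against 7.89% and 5.65%. Both Tcf4 cKO libraries lay above both WT libraries at these 4 genes. That pattern was common, since 42.3% of the 16425 genes tested showed it and 4.83% the opposite, and the Tcf4 cKO libraries covered more of the genome. Scaled by the cover of each library, the difference at Neurog1 was 3.95, while that at Neurod1 went from 3.48 to 0.62, at Neurod6 from 2.09 to 0.37, at Neurod2 from 2.49 to -0.23 and at Neurog2 from 0.29 to -4.41. Without Tcf4 cKO replicate 1 it was 2.12 at Neurod1, 1.26 at Neurod2 and 0.96 at Neurod6. Neurog2 had 14.9% and 16.4% in WT and 15.7% and 16.1% in Tcf4 cKO, and Bhlhe22 5.37% and 2.20% against 3.87% and 3.63%, with overlapping groups. None of the 6 passed the limma test of extent, where 0% of genes were called and 2053 had an unadjusted p under 0.05.

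In both WT libraries the strongest H3K4me1 peak among the 6 genes was at the Neurod6 downstream element printed above, where the peaks of the 4 libraries ran between 3921 and 4763 bp after the gene start, past the end of the gene. Its fold enrichment was 7.32 and 7.21 in WT, above 99.6% and 99.4% of the peaks in those lists. In Tcf4 cKO it was 6.15 and 5.10, above 97.7% and 88.6%, and in replicate 1 a peak downstream of Neurog2 was slightly higher at 6.18. Each value in Tcf4 cKO was lower than each in WT, by -0.37 ± 0.17 on the log2 scale (SE), and the adjusted p was 0.656 (limma). This difference was -0.24 without Tcf4 cKO replicate 2. At the other 5 genes it ran from -0.15 at Neurod1 to 0.31 at Neurog1, the last at 0.088 without WT replicate 2. In this test 0.00813% of 12299 genes were called, none of them a member, and 883 genes had an unadjusted p under 0.05.

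Accessible chromatin was found at all 6 genes in all 4 ATAC-seq libraries. Its strongest peak had its summit in the coding exon at Neurod1, Neurod2 and Bhlhe22 in all 4 libraries and at Neurog2 in 3 of them. Per library, 3 or 4 of the 6 genes had it there, whereas 6.31% to 6.75% of all genes with a peak did. The shares were not adjusted for gene length. The ATAC-seq peak of Neurod1 covered 547 to 706 bp of its coding sequence in each library, and its summit lay 2420 to 2445 bp after the gene start in all 4. A further peak lay upstream of Neurod1 in every library, between -3346 and -2233 bp, under H3K27me3. Neurog1 was open across its start, where the peak ran from at least 429 bp upstream to at least 419 bp downstream. Neurod6 differed from the rest. It had no ATAC-seq peak over its start or coding exon in any library, and within its window only the downstream element was open, with a fold enrichment of 8.33 and 6.85 in WT and 7.35 and 7.69 in Tcf4 cKO.

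Neurog2, the main neurogenin of dorsal cortical progenitors, had the largest ATAC-seq extent. Peaks covered 17.6% and 24.6% of its window in WT and 13.5% and 13.1% in Tcf4 cKO. Both Tcf4 cKO libraries were lower, by -7.77 ± 2.51 percentage points (SE, limma, adjusted p = 0.609), and the difference was -4.25 without WT replicate 2 and -11.3 without WT replicate 1. The part not covered in Tcf4 cKO was the gene start. There WT replicate 1 had a peak from -49 to 487 bp and WT replicate 2 a single peak from -461 to 1698 bp. Upstream of the start the nearest Tcf4 cKO peaks ended at -188 and -380 bp, and downstream they began at 717 and 689 bp. The WT replicate 1 peak was weak, with a fold enrichment of 3.02, above only 1.93% of its list. The WT replicate 2 peak had its summit at 1140 bp, in the coding exon. Neurod1 had 10.6% and 9.98% in WT and 7.76% and 8.04% in Tcf4 cKO, and Neurod2 7.49% and 7.40% against 4.20% and 5.60%. At Neurog2, Neurod1 and Neurod2 both Tcf4 cKO libraries lay below both WT libraries, by -2.38 ± 0.63 points at Neurod1 and -2.55 ± 0.68 at Neurod2, each with an adjusted p of 0.556. With 2 kb on each side of the gene these became -0.18 and -4.40. Among all 17032 genes tested 25.4% had that pattern and 9.11% the opposite. The median difference over all genes was -0.22 points, and over the 6 genes -1.76. The median WT cover also differed, at 4.66% over the genes tested and 10.5% at the 6 genes. The values overlapped between genotypes at Neurog1, Neurod6 and Bhlhe22, with Bhlhe22 at 12.4% and 13.5% in WT and 12.7% and 10.9% in Tcf4 cKO.

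Peak height differed little between genotypes. The log2 of the highest fold enrichment differed by -0.05 to 0.12 at the 6 genes, and of the genes with lower extent in both Tcf4 cKO libraries, it was 0.12 higher at Neurog2 and Neurod1 and -0.05 at Neurod2. Of the 6, none passed the limma test of extent or of peak height. The share called was 0% of 17032 genes for extent and 0% of 16222 genes for height, with 1280 and 1738 genes at an unadjusted p under 0.05.

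The authors' consensus regions give accessibility as the mean log2 normalised reads of the 2 libraries of a genotype, so no spread between libraries can be given for them. Of the 8 regions assigned to the 6 genes, 3 belonged to Neurog1, 2 to Neurod6 and 1 each to Neurog2, Neurod2 and Bhlhe22. The region over the Neurod1 coding exon (chr2:79453819-79454672) carried no gene symbol in that annotation and is given here as well. The highest mean was over the Bhlhe22 coding exon, 219 to 1707 bp after the gene start (chr3:18054393-18055881), 8.31 in WT and 7.80 in Tcf4 cKO. The lowest in WT was at a region 15261 bp past the Neurod2 start (chr11:98313738-98314387), 5.37 in WT and 5.93 in Tcf4 cKO. The lowest in Tcf4 cKO was at a region upstream of Neurog1 (chr13:56258500-56259153), 6.04 in WT and 5.83 in Tcf4 cKO. At Neurog2 (chr3:127633824-127634636) the means were 7.18 and 7.09, at the Neurod1 coding exon 6.82 and 6.86, and at the Neurod6 downstream element 6.02 and 6.10. For 5 of the 9 regions the means of the genotypes lay within 0.30 of each other.

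The largest difference was at the region upstream of Neurod6 (chr6:55689947-55691002), which is intergenic, with its near end at -8684 bp. Its mean was 6.49 in WT and 7.33 in Tcf4 cKO, a difference of 0.84 on the log2 scale that exceeded 96.1% of all consensus regions. The Neurod2 downstream region followed with 0.56 and Bhlhe22 with -0.50. Of the 9, 2 regions were thus over 0.5 higher in Tcf4 cKO, where 8.38% of all regions were, and 1 was over 0.5 lower, where 12.6% were. The value at Bhlhe22 lay at the limit, and centred on the median difference of all regions, -0.10, only the 2 higher ones passed. The nearest region on the inner side was the Neurog1 start (chr13:56251356-56252748), with 6.88 and 7.22. Both higher regions lay outside the gene windows. They had H3K4me1 in all 4 libraries and no peak of H3K27me3, H3K27ac or Tcf4 in any library. They were the only ones of the 9 with H3K4me1 in all 4 libraries and no H3K27me3.

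**Figure D3:**
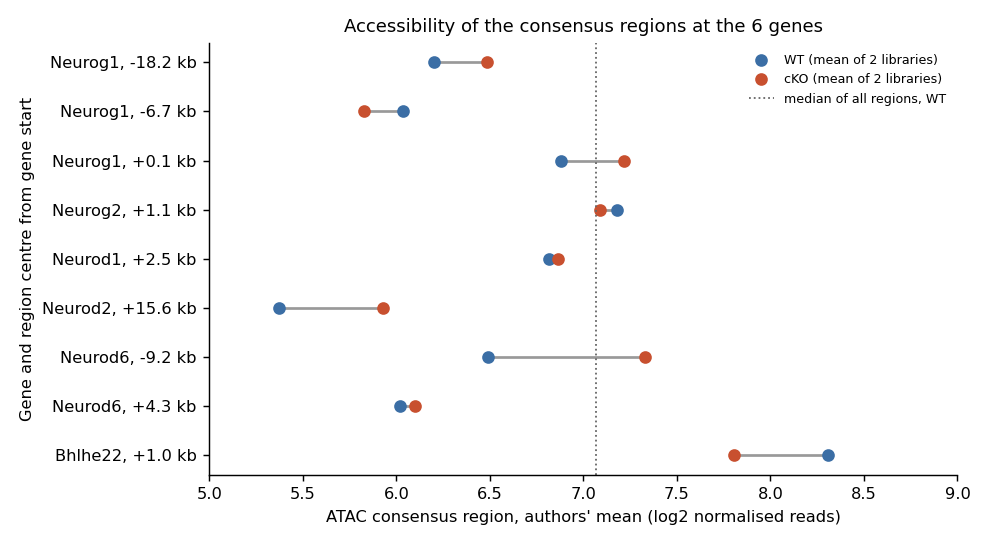
Accessibility of the 9 ATAC-seq consensus regions at the 6 genes, as the authors' mean over the 2 libraries of each genotype in log2 normalised reads, with WT in blue and Tcf4 cKO in red. Rows give the gene and the distance of the region's centre from the gene start, and the dotted line is the median of all 32120 regions in WT. The Neurod6 upstream region is at 6.49 in WT and 7.33 in Tcf4 cKO.

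The 5 consensus regions inside the windows, those over Neurog1, Neurog2, Neurod1 and Bhlhe22 and downstream of Neurod6, shared 3 features. Each had H3K27me3 in all 4 libraries, which 7.59% of all consensus regions had. Each had H3K4me1 in both libraries of each genotype, which 49.0% had in WT and 64.4% in Tcf4 cKO. None had H3K27ac in both libraries of a genotype, which 16062 of the 32120 had in WT and 45.2% in Tcf4 cKO. These shares were not tested, since the 5 regions belong to 5 genes of 1 family chosen together.

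The samples held no control library for the tag, so background among the Tcf4 peaks was not tested. Tcf4 peaks were found at all 6 genes in replicate 1 of the Tcf4-tag libraries, where 65.9% of all protein-coding genes had one in their window. Replicate 2, with 16834 peaks against 28606, had one at Neurod1 only, where 51% of genes had one. Shares of genes with a Tcf4 peak were not adjusted for window length, which was shorter at the 6 genes than at most genes. Regions found in both libraries were present in the windows of 48.5% of genes and of 1 of the 6. This was the coding exon of Neurod1, where the peak ran from 2213 to 2766 bp after the gene start in replicate 1 and from 2172 to 2655 bp in replicate 2. The fold enrichment there was 5.70 and 5.90, above 73.0% and 70.2% of the peaks in the lists. The ATAC-seq, H3K4me1 and H3K27me3 peaks of Neurod1 overlapped it in all 4 libraries of each assay.

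The replicate 1 peaks at the other genes were of varied strength. At the Neurod6 downstream element the fold enrichment was 5.92, above 77.1% of peaks, and at Bhlhe22 it was 4.85. It was 3.80 and 3.44 for the 2 peaks of Neurog2, 3.51 for Neurog1 and 3.07 for Neurod2, the last above 3.36% of peaks. Of the 7 peaks, 5 had their summits in coding exons and the other 2 past the gene ends, and the summit nearest to a gene start was that of Neurog1, at 491 bp. Among all genes with a Tcf4 peak in the window, 11.5% had the strongest summit in their own coding sequence in replicate 1, without adjustment for gene length. Replicate 2 showed no peak at 5 of the 6 genes, so Tcf4 there rests on 1 library.

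Within 75 bp of the 7 summits of replicate 1, the general E-box CANNTG, which reads the same on both strands, was found at 2, against 49.2% of all replicate 1 summits and 46.1% of those in regions found in both libraries. With 7 summits this count was not set apart from these shares by any test. The 2 are the downstream summits printed above, with CAGCTG at Neurod6 and CAGTTG at Neurog2. None of the 5 coding exon summits held one, the Neurod1 region included. CAGCTG was found within 75 bp of 14.2% of all replicate 1 summits, CATCTG or its complement CAGATG of 11.2%, and CACCTG or its complement CAGGTG of 11.2%, and of the 7 only the Neurod6 summit held any of these. The 5 coding windows had a GC content of 60.3% to 68.9%. At the centre of the Neurod6 upstream region the core was CATATG, and 49.2% of all consensus regions held a CANNTG within 75 bp of their centres.

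The authors' footprint table holds 11 motifs named for 5 of these factors (none for Neurod6), with mean footprint scores over all sites from reads pooled by genotype. All 11 were lower in Tcf4 cKO, as were 53.4% of the 1205 motifs in the table. The largest differences were 0.333 in WT against 0.306 in Tcf4 cKO for a BHLHE22 motif and 0.313 against 0.289 for a NEUROD2 motif, and the smallest 0.199 against 0.198 for another NEUROD2 motif. These motifs resemble each other, so their scores come partly from the same sites, and they say nothing of which bHLH factor is bound.

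Other genes of the pathway were compared by fixed lists. Of 10 further neural bHLH genes, 8 entered the H3K27me3 test and none passed it. The largest differences were at Neurog3, with 49.3% and 44.99% of the window covered in WT and 34.3% and 29.2% in Tcf4 cKO (-15.4 ± 2.82 points, SE, limma, adjusted p = 0.149), and at Atoh1, with 37.2% and 50.2% against 33.0% and 32.9%. With only peaks of -log10 q of at least 5, 80 of 1861 genes passed as higher and 143 as lower in Tcf4 cKO. Neurog3 was among the lower, by -17.1 points (limma, adjusted p = 0.0396). Its adjusted p ran from 0.0935 to 0.732 under the other alternatives. Of 9 genes downstream of neurogenins, 7 were tested and none passed. Insm1, a zinc finger factor of neuronal progenitors, had 52.6% and 60.4% in WT and 40.2% and 54.2% in Tcf4 cKO, and Gadd45g 29.4% and 14.9% against 28.6% and 27.4%. At Tbr1 and Eomes, markers of the excitatory lineage, the promoter lay under H3K27me3 in both libraries of each genotype. Of the 9 promoters, 4 had H3K27me3 in both libraries in WT and 5 in Tcf4 cKO. Promoter H3K27ac in both libraries was found at Dll3, Rnd2 and Hes6 in WT, and at Dll1, Dll3 and Hes6 in Tcf4 cKO.

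Among the 9 partners and antagonists of bHLH factors, 5 were tested and none passed. The antagonist Id1 had no H3K27me3 cover in either WT library and 20.2% and 18.8% of its window in Tcf4 cKO (19.5 ± 1.18 points, SE, limma, adjusted p = 0.120). Id2 had 15.4% and 5.39% in WT and 17.04% and 29.7% in Tcf4 cKO. Promoter H3K27me3 in both libraries was found at Id4 in WT and at Id1, Id2, Id3 and Id4 in Tcf4 cKO. Promoter H3K27ac in both libraries was found at the E protein genes Tcf3 and Tcf12 and at Id3 and Id4 in WT, and at Tcf12 and Id1 in Tcf4 cKO, so Id1 carried both marks in the latter. Tcf3 and Tcf12 had no promoter H3K27me3 in both libraries of either genotype.

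No gene of the cell type lists passed the H3K27me3 test either, with 9 of 9 projection neuron, 10 of 10 interneuron, 5 of 5 oligodendrocyte precursor, 5 of 5 astrocyte, 1 of 4 microglia and 3 of 4 endothelial genes tested. Their H3K27me3 differences included -10.4 points at Emx2 and 10.2 at Fezf2, 6.47 at Lhx6, 14.6 at Olig2 and 10.9 at Sox10, 18.7 at Sox9 and 5.87 at Gfap, 0.34 at Cx3cr1, and 0.85 at Kdr and 0.28 at Flt1. Olig2 had its cover in 1 library of each genotype, at 5.73% in WT replicate 1 and 34.8% in Tcf4 cKO replicate 1. With only peaks of -log10 q of at least 5, 80 of 1861 genes passed as higher and 143 as lower in Tcf4 cKO. Among the lower was the interneuron gene Dlx1, named here after its values were seen, by -31.9 points (limma, adjusted p = 0.0046). With all peaks its difference was -3.16 points (adjusted p = 0.871), and under the other alternatives its adjusted p ran from 0.418 to 1. The median WT cover was 22.2% for the projection neuron list and 31.9% for the interneuron list, against 41.4% for the 6 proneural genes. Reproducible Tcf4 regions lay in the windows of 48.5% of all protein-coding genes and of 1 of the 6 proneural genes, without adjustment for window length. Among the lists they lay at 6 of the 9 genes downstream of neurogenins, 5 of 5 oligodendrocyte precursor genes and 3 of 5 astrocyte genes. The counts were 3 of 9 projection neuron genes, 3 of 9 partners and antagonists and 2 of 10 interneuron genes. They were 1 of the 10 further neural bHLH genes, 2 of 4 endothelial genes and 1 of 4 microglia genes. The share of these cell types among the sorted cells of each genotype was not measured by these files, and its part in the differences was not tested.

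**Figure D4:**
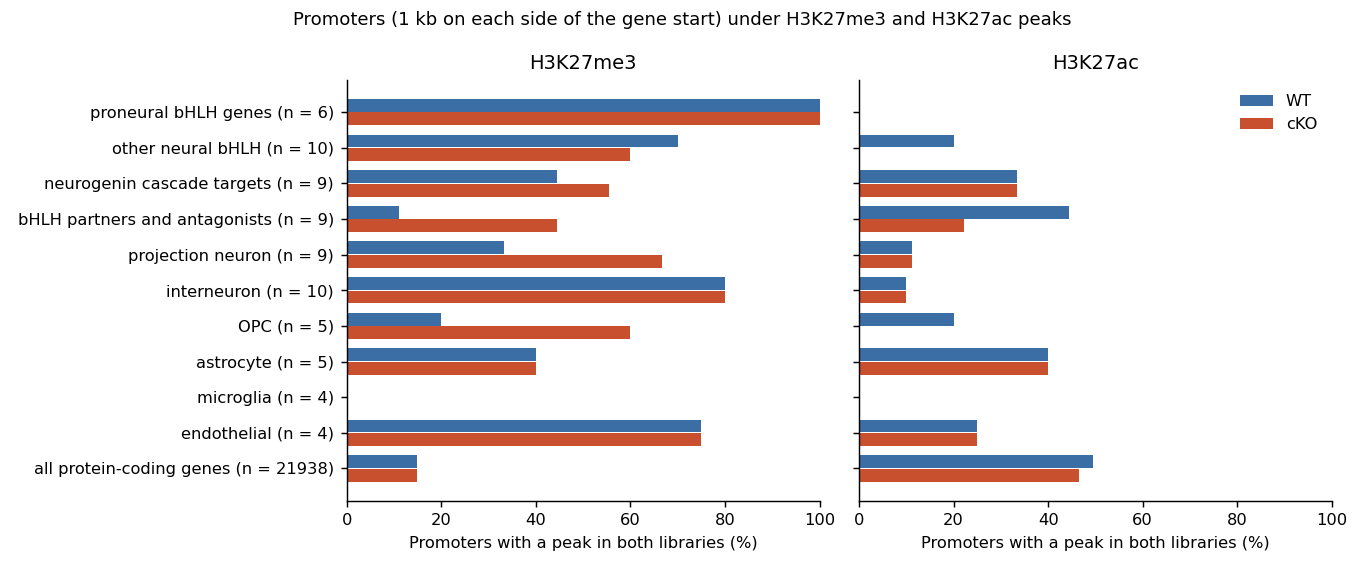
Share of promoters, in percent, with an H3K27me3 peak (left) or an H3K27ac peak (right) in both libraries of WT (blue) and Tcf4 cKO (red), for the 6 proneural genes, the 9 other gene lists and all 21938 protein-coding genes. All 6 proneural promoters have H3K27me3 in both genotypes and none has H3K27ac, against 14.8% and 49.5% of all promoters in WT.

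The genes most like each of the 6 were found by the distance between their shares of window covered over all 18 libraries. Neurog1 was nearest to Hlx (distance 10.0 percentage points, with a median of 72.8 over all genes) and Arid3c, and Neurog2 to Msx1 (19.7) and Pou4f3. Neurod1 was nearest to Wnt1 (10.5) and Vgll2, Neurod2 to Gm11733 (10.9) and Slc10a6, and Bhlhe22 to Duoxa2 (9.70) and Tbx2. Neurod6 was nearest to E2f1 (13.3), whose H3K27me3 cover had a mean of 41.0% in WT and 15.8% in Tcf4 cKO, and to Tbc1d10a, with 34.6% and 18.4%. The H3K27me3 cover of both genotypes entered the distance, so a like difference at these neighbours follows from how they were chosen. Within the family, Neurod1 and Bhlhe22 were the closest pair at 16.7, and Neurog2 and Neurod6 the farthest apart at 47.0.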

How the data were processed

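ATAC-seq and Cut&Tag were done on sorted Nkx2.1-lineage cells, with 2 libraries per genotype and assay. The authors trimmed reads with Trim Galore, aligned them to mm10 with Bowtie 2, removed duplicates and called peaks per library with MACS2. The deposited peak lists give fold enrichment (a ratio to the local background) and -log10 p and -log10 q values. The authors' consensus table gives mean log2 normalised reads per genotype (DiffBind), and their footprint table mean footprint scores (TOBIAS). Their own fold changes, p-values and FDR values were not used. No file holds read counts, so depth is unknown and peak numbers stand in for it.

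Here, peaks were placed on GENCODE M21 genes (GRCm38, the same build as mm10) with Python 3.11.15 and pysam 0.24.0. The values per gene and library, the percent of the window covered and the log2 of the highest fold enrichment, were compared between genotypes with limma 3.58.1 (trend, R 4.3.3) over all genes, with cover in at least 2 of 4 libraries or a peak in all 4, and Benjamini-Hochberg adjusted p-values under 0.05 were called. With 2 against 2 libraries, an exact two-sided permutation test cannot give a p below 0.33, so single values were not tested. The fits were tested on simulated data. Named genes were the 6 members, the 2 genes of each list with the largest H3K27me3 difference, and the 2 nearest genes of each member. Some of the genes this rule names are not reported here. Members and lists were chosen with earlier results of these data known. Single-cell RNA sequencing was not analysed here.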

Additional observations from a re-analysis of the deposited data

How the results depend on the processing

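None of the 36 differences at the 6 genes passed the threshold in any of 322 recomputations (lowest adjusted p = 0.103, limma), and 286 kept their direction. At Neurod6 the H3K27me3 difference stayed negative under every alternative run, -17.2 to -28.2 points without 1 library, with adjusted p from 0.132 to 0.798. A replicate block left each member difference as it was, and that at Neurod6 had an SE of 3.23 and an adjusted p of 0.322. The numbers give no evidence of pairing, since correlations of same-numbered deviations were between -0.07 and 0.06 (2 pairs), and block counts of called members stayed at 0. The threshold on -log10 q left 1861 genes in the H3K27me3 test, 80 higher and 143 lower, none a member but with Neurog3 and Dlx1 of the other lists among the lower. Scaled ATAC-seq extents called 73 higher and 120 lower, and H3K27me3 peak heights with missing peaks at the list minimum 286 and 297, again no member.

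The differences that turned sign were all below the threshold, and the cause was not tested. Scaling by library cover gave -1.10 for H3K27me3 extent at Bhlhe22, -4.41 and -0.23 for H3K4me1 extent at Neurog2 and Neurod2, and 0.12 for ATAC-seq extent at Neurod6. A flank of 2 kb gave 5.25 for H3K27me3 extent at Neurod2, -0.019 for its peak height at Neurog2, and -0.26 and -0.10 for H3K4me1 peak height at Neurog2 and Neurod2. The minimum of 5 on -log10 q gave 0.73 for H3K27me3 extent at Neurod2. On the log2 scale H3K4me1 extent at Bhlhe22 was 0.027. Centring on the library median gave 0.074 and 0.029 for ATAC-seq peak height at Neurod6 and Neurod2. Without 1 library, H3K27me3 extent ran from -0.85 to 2.04 at Bhlhe22, -7.82 to 0.81 at Neurog1 and -10.8 to 0.34 at Neurog2, and its peak height from -0.0063 to 0.068 at Neurod2, -0.0084 to 0.18 at Neurod6 and -0.043 to 0.043 at Neurog2. H3K4me1 extent ran from -1.61 to 1.55 at Bhlhe22 and -0.46 to 1.04 at Neurog2, and its peak height from -0.064 to 0.26 at Bhlhe22, -0.19 to 0.21 at Neurod2 and -0.15 to 0.33 at Neurog2. ATAC-seq extent ran from -0.59 to 0.14 at Neurod6 and -2.13 to 0.44 at Neurog1, and its peak height from -0.048 to 0.18 at Bhlhe22, -0.17 to 0.065 at Neurod2, -0.15 to 0.14 at Neurod6 and -0.19 to 0.25 at Neurog1.

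All 6 promoters kept H3K27me3 in every alternative run. With a -log10 q of at least 5, promoters with H3K4me1 fell from 3 to 1 in each genotype. With 1 library deciding, promoters with H3K27ac ran from 0 to 1 in each genotype, and with H3K4me1 in Tcf4 cKO from 3 to 5. Consensus regions past the limit numbered 3, or 1 in the gene windows and 0 at an absolute difference over 1. Tcf4 regions ran from 1 to 7 when 1 library decided, 7 without replicate 2. Summits with CANNTG numbered 2, or 1 within 50 bp and 3 within 150 bp. Peak lists without read counts limit precision, since a gap between peaks can be a stretch just under the caller's threshold.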
